A study of Homo sapiens with 38 samples.

Results

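The collagen genes are 43 of the 19775 genes named on the array, taken as every symbol written COL, a number, A and a number. They were found by name alone and not by any measured value. Each was read from its brightest probe set, and 112 collagen probe sets in all named 1 gene. The cells were IMR90 human lung fibroblasts, an established non-transformed line, of 4 kinds, with the MLP vector left empty or with an RNA hairpin in it that targets RB (shRB), its relative p107 (shp107) or its relative p130 (shp130). They were growing in medium with 10% FBS, kept in 0.1% FBS (low serum), grown to confluence, or made senescent by expression of ras, so senescent and growing cells differ in ras as well as in growth state. Experiment 1 held all 16 pairings of line and state on 32 arrays. Experiment 2 held vector cells, growing and senescent, and shRB cells, senescent only, on 6 arrays, and every one of the 19 groups had 2 arrays.

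Collagens are the main structural proteins of the extracellular matrix, and each molecule is a helix wound from several α chains that the genes encode separately. Fibrillar collagens (types I, III and V among them) form the tensile fibres that fibroblasts lay down, while type IV forms the sheet of basement membranes and type VI a beaded microfibril around cells. Fibril-associated collagens (XII, XIV, XVI) decorate the fibres, the short-chain collagens VIII and X build open networks, type VII anchors epithelium to the matrix below, the multiplexins XV and XVIII sit at basement membranes, and type XIII spans the cell membrane. The pocket proteins RB, p107 and p130 bind E2F transcription factors and hold back cell cycle genes in arrested cells.

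Several collagen genes lie head to head with a partner gene, and for 2 such pairs the promoter windows in RefSeq overlap. A window runs from 250 bases before to 50 bases after a gene's start. Of the 43 collagen genes, 31 had a window there (build GRCh38.p14), among them 16 of the 23 genes bright enough to test. The pairs are printed because both members of each were measured here. COL4A1, on the minus strand at chr13:110307108-110307407, and COL4A2, on the plus strand at chr13:110307034-110307333, share 226 bases, with their starts 127 bases apart. COL4A6, on the minus strand at chrX:108439409-108439708, and COL4A5, on the plus strand at chrX:108439588-108439887, share 121 bases, with starts 380 apart. Capitals mark the bases that the partner's window also holds, on the other strand, and every line reads 5′ to 3′ in the gene's own direction.
COL4A1: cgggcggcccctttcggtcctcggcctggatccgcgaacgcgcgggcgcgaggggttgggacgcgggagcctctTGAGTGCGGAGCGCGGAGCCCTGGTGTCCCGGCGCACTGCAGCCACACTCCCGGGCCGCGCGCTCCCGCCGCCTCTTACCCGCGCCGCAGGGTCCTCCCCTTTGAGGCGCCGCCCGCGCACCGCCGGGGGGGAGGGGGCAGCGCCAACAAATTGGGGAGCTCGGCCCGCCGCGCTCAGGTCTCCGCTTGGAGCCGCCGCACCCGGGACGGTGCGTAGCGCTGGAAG
COL4A2: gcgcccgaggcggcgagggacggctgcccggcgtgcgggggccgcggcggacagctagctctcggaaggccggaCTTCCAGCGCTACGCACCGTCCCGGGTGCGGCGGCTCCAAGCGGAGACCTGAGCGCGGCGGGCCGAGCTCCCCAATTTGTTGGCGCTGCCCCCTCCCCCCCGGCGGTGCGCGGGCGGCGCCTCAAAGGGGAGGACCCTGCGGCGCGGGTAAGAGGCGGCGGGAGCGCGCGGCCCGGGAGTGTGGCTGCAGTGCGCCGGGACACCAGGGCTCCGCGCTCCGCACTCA
COL4A6: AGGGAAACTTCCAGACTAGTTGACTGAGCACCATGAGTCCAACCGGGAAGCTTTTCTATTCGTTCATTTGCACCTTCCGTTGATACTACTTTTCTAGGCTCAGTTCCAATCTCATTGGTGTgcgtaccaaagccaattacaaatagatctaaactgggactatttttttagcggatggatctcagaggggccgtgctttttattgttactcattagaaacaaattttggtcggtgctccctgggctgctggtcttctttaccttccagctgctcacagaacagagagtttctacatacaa
COL4A5: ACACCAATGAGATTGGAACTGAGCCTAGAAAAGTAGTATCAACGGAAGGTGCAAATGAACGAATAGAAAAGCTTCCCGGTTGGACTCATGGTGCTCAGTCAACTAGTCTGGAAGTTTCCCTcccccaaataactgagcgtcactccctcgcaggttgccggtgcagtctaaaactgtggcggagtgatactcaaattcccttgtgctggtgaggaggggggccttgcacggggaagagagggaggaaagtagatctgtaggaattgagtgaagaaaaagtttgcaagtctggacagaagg

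The first pair is 76.7% and 77.7% G or C and the second 43.7% and 49.3%, beside a median of 58.7% over all 35116 windows. CCAAT, searched on both strands, occurs in all 4 of these windows and in 34.61% of all windows. Each pair holds a CCAAT within its shared bases, which counts in both windows, so the 4 are not separate cases. COL10A1 is the collagen that rose with senescence in every line. It has 3 windows, and the one at chr6:116126083-116126382 on the minus strand holds TATAAA, in capitals, 31 bases before the start. Another of the 3 holds it more than once, with the copy nearest its start 22 bases before it.
COL10A1: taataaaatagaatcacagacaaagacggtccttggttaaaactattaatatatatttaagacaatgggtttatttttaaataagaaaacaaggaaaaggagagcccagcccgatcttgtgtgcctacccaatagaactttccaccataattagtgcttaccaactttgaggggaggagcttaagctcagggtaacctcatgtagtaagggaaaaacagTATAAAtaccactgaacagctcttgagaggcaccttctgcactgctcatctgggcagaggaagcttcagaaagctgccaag

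TATAAA, on either strand, occurs in 11.53% of all windows and in 6 of the 21 windows of tested collagens (those of COL10A1, COL13A1, COL18A1, COL6A2 and COL7A1). The motif TGANTCA, with any base at N, is wider than the AP-1 site, which has C or G there. It occurs in 7.71% of all windows and in 1 of the 21, also a COL10A1 window. That window, not printed here, holds TGAATCA and TGATTCA, neither of them the AP-1 form. The E2F motifs TTTCCCGC, TTTGGCGC, TTTCGCGC and TTTGCCGC together occur in 3.31% of all windows and in 0 of the 21. These are matches of letters only.

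Values are log2 intensities after GCRMA. The median of an array lay between 3.27 and 3.41, so a value near 3 to 4 is close to background. A change that starts or ends there can be understated on the log2 scale. The number of arrays limits the precision, and whether replicate arrays came from separate cultures is not given, so p-values measure the spread between these arrays, which may be technical. The confluent vector arrays differed most from each other (SD of the difference over tested genes 0.794, against 0.177 to 0.659 in the other 18 groups), with a median absolute difference of 0.57 over the collagens. RB1 was 9.44 ± 0.07 (SD, n = 2) in growing vector and 5.39 ± 0.28 in growing shRB cells, and RBL2, the p130 gene, 7.69 ± 0.03 in growing vector and 5.34 ± 0.21 in growing shp130 cells. RBL1, the p107 gene, was dim in vector and shp107 cells alike (4.31 ± 0.10 and 3.57 ± 0.55 when growing), so its suppression could not be checked well. Of the fibroblast markers, VIM, THY1, PDGFRA, FAP, DCN and LUM were above 5 on all 38 arrays, PDGFRB on 25 and S100A4 on 22. The blood markers PTPRC, CD3E, CD14 and HBB, the endothelial markers PECAM1, CDH5, VWF and KDR and the epithelial markers EPCAM, CDH1, KRT5, KRT14, KRT8 and KRT19 were above 5 on 0 arrays, while TEK was above it on 38 and KRT18 on 37. In such bulk RNA, fewer cells that express a gene and less RNA per cell cannot be told apart.

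Genes were tested where at least 2 arrays of experiment 1 exceeded a log2 value of 5, and 23 of the 43 collagens and 8511 genes in all passed. They were 7 of 11 fibrillar and 16 of 32 other collagens. COL10A1 passed through 8 arrays of experiment 1, COL14A1 through 7 and COL11A1 through 6, all in the groups where they were high, so these 3 had to differ between groups. COL15A1 passed through 24, none of them senescent, so the same limit holds for it. Just outside were COL24A1, above 5 on 2 of all 38 arrays but on only 1 of experiment 1, and COL5A3, above 5 on 1. The 20 collagens not tested had values from 2.22 to 5.24 and gene medians from 2.47 to 4.27. They were COL2A1, COL5A3, COL11A2 and COL24A1 among fibrillar collagens, COL4A3 and COL4A4, COL6A5 and COL6A6, COL8A2, the fibril-associated COL9A1, COL9A2, COL9A3, COL19A1, COL20A1, COL21A1 and COL22A1, the transmembrane COL23A1 and COL25A1, and COL26A1 and COL28A1. COL24A1 read 5.22 and 5.0 in confluent vector cells and 4.53 and 5.10 in senescent shRB cells of experiment 2, against 3.89 and 3.64 in growing vector cells of experiment 1.

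The tested collagens ranged from genes with narrow spans to genes with very wide ones. Group means of COL6A3, a chain of type VI, spanned 0.68 log2 units over the 19 groups (12.08 to 12.77), and those of COL1A1, a chain of type I, 0.73 (11.69 to 12.42) on its brightest probe set. Other COL1A1 sets moved further, by -3.25 and -2.65 with senescence in experiment 2. The widest spans were 9.48 for COL15A1 (2.50 in senescent shp130 to 11.98 in low-serum vector cells), 6.57 for COL10A1 (2.68 to 9.25), 6.14 for COL14A1 (2.15 to 8.29) and 6.09 for COL4A6 (4.42 to 10.5). Within a group the median SD between replicates was 0.08 for COL1A1 and 0.32 for COL15A1. The heat map of group means shows these 4 wide rows among many pale ones.

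**Figure D1:**
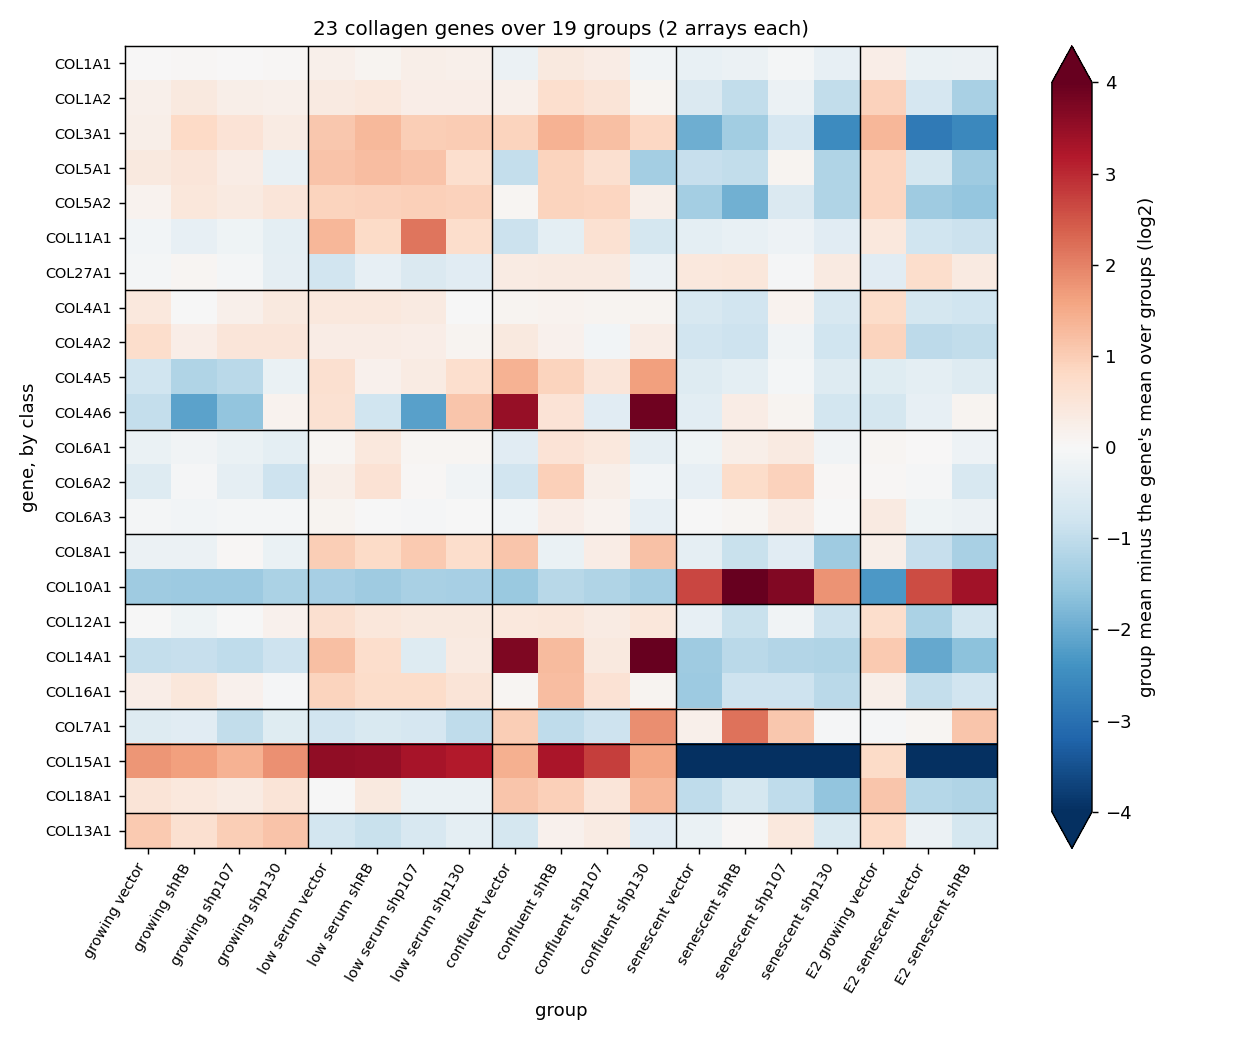
Heat map of the 23 tested collagen genes (rows, by class, with lines between classes) over the 19 groups (columns, 2 arrays each, E2 for experiment 2), where colour is the group mean minus the gene's own mean over groups in log2 units. COL15A1 is lowest and COL10A1 highest in the 6 senescent groups, and COL4A6 and COL14A1 are highest in confluent vector and shp130 cells.

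Ras-senescent and growing cells, both with the empty vector, show how the matrix genes differ in the senescent state. In experiment 1, 1 of 23 collagens rose and 10 fell, which is 47.8% called, beside 25.4% of all genes tested (9.21% higher, 16.2% lower), and the median change was -0.34 against -0.10 over all genes. Among fibrillar collagens 4 of 7 fell and 0 rose, and among the others 6 of 16 fell and 1 rose. Changes are log2 differences with standard errors from limma, and adjusted p-values are Benjamini-Hochberg values over all 8511 genes.

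COL3A1, the chain of type III collagen, read 12.47 and 11.63 on the growing and 9.84 and 9.83 on the senescent vector arrays. Its fall of 2.21 on the log2 scale (SE 0.34, limma adjusted p = 4.44e-05) was the greatest of the fibrillar group. COL5A2, a chain of type V, went from 11.5 and 11.04 to 9.53 and 10.01, a change of -1.5 ± 0.30 (limma adjusted p = 0.00066). Its partner COL5A1 went from 10.72 and 10.49 to 9.42 and 9.15 (-1.32 ± 0.35, limma adjusted p = 0.00847). The groups did not overlap for any of these genes. COL1A2, a chain of type I, went from 12.85 and 12.71 to 12.19 and 11.83, a smaller fall of 0.77 on the log2 scale (SE 0.21, limma adjusted p = 0.00827). COL1A1 (-0.29 ± 0.17), COL11A1 (-0.26 ± 0.52) and COL27A1 (0.48 ± 0.28) were not called. The calls of COL1A2 and COL5A1 were lost without growing vector replicate 1 or senescent vector replicate 2, where their highest adjusted p was 0.115 and 0.0727.

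In the basement membrane class, the chains that make the common type IV network fell, and the chains of narrower distribution were not called. COL4A1 went from 11.98 and 11.85 to 10.85 and 10.89 (-1.04 ± 0.19, limma adjusted p = 0.000297). COL4A2 went from 11.76 and 11.89 to 10.53 and 10.20 (-1.46 ± 0.27, limma adjusted p = 0.000332). COL4A5 (0.29 ± 0.31) and COL4A6 (0.53 ± 0.62) were not called. The beaded-filament genes COL6A1, COL6A2 and COL6A3 were not called either, with changes of 0.09, 0.18 and 0.07.

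The multiplexins gave the strongest fall. COL15A1 read 11.39 and 9.02 in growing vector cells and 3.69 and 3.68 in senescent ones, close to the array median. The change of -6.52 ± 0.53 (limma adjusted p = 1.19e-08), 91.9-fold, can thus be understated. It ran from -7.71 to -5.34 as single arrays were left out, since the growing arrays differed by 2.37. COL18A1, which encodes the collagen that endostatin is cut from, went from 7.61 and 7.42 to 5.95 and 6.03 (-1.52 ± 0.34, limma adjusted p = 0.00234). Among fibril-associated collagens COL16A1 fell, from 7.86 and 8.02 to 6.37 and 6.09 (-1.71 ± 0.20, limma adjusted p = 1.55e-06), whereas COL12A1 (-0.34 ± 0.19) and COL14A1 (-0.49 ± 0.69) were not called. The transmembrane COL13A1 went from 9.30 and 8.95 to 7.52 and 8.13 (-1.31 ± 0.39, limma adjusted p = 0.0176), a call lost without growing vector replicate 1 or senescent vector replicate 1 (highest adjusted p = 0.17).

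COL10A1, the type X chain best known from the hypertrophic cartilage of growth plates, was the 1 collagen that rose. It read 3.63 and 3.51 in growing and 7.71 and 7.62 in senescent vector cells. On its brightest probe set the change was 4.10 ± 0.29 (limma adjusted p = 1.17e-09), or 17.1-fold. Growing cells were at background, so the change can be understated. Over the whole series COL10A1 lay between 6.32 and 9.66 (median 8.09) on the 12 senescent arrays and between 2.51 and 3.93 (median 3.62) on the 26 others. COL15A1 lay the other way, at 2.44 to 4.41 (median 3.38) on the senescent and 9.02 to 12.21 (median 10.81) on the other arrays. For both genes no senescent array overlapped with any other array. Of the cartilage markers, COL2A1, ACAN and MATN1 were above 5 on 0 arrays, SOX9 on 38 and MATN3 on 11. A second COL10A1 probe set gave 2.49 ± 0.21 for the same comparison (limma adjusted p = 1.68e-08).

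**Figure D2:**
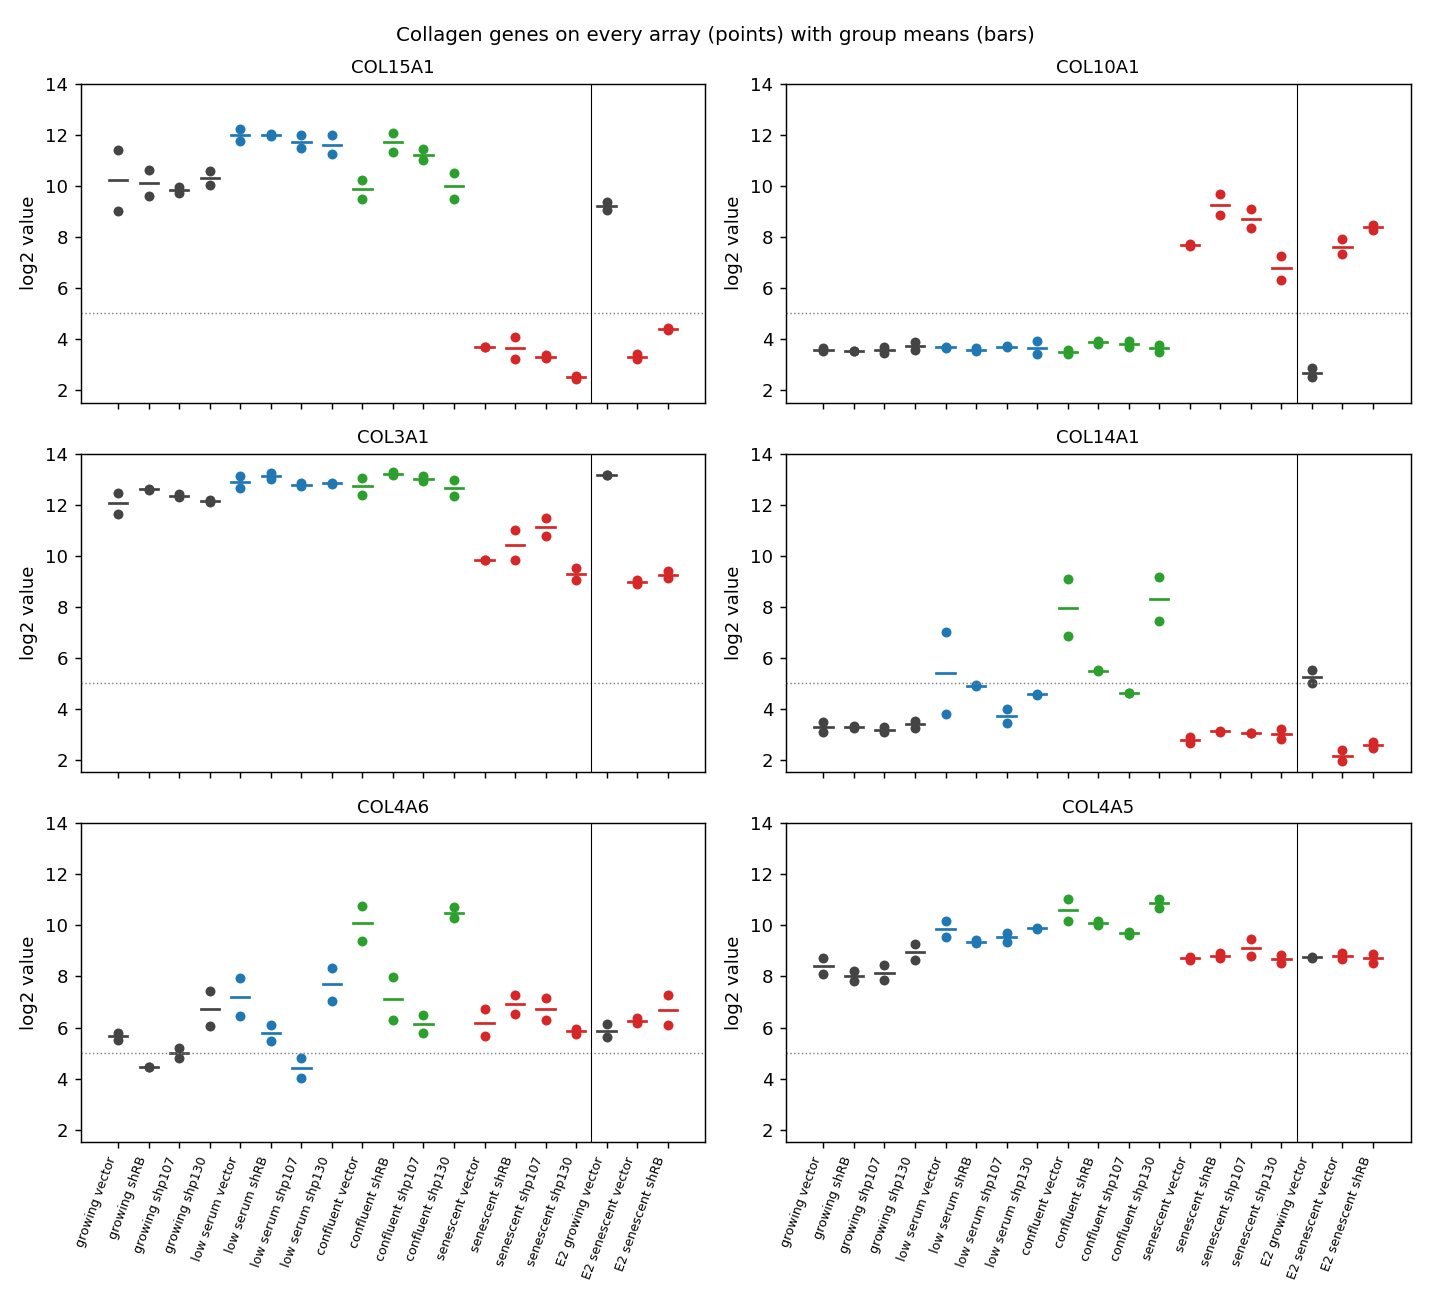
Log2 values of 6 collagen genes on all 38 arrays (points) with the mean of each group (bars), grey for growing, blue for low serum, green for confluent and red for senescent cells, with experiment 2 right of the vertical line and the filter value of 5 dotted. COL15A1 drops to 2.44 to 4.41 and COL10A1 rises to 6.32 to 9.66 on every senescent array, while COL14A1 and COL4A6 peak in confluent vector and shp130 cells.

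Senescent cells were also set against the other arrested states. Against low-serum vector cells 15 of 23 collagens were lower and 2 higher, beside 38.9% of all genes called (15.2% higher, 23.8% lower). Against confluent vector cells 13 were lower and 1 higher, beside 33.4% of all genes (14.6% higher, 18.8% lower). COL15A1 differed from low serum by -8.30 ± 0.53 (limma adjusted p = 1.44e-10), and COL14A1 from confluence by -5.18 ± 0.69 (limma adjusted p = 9.91e-06). COL10A1 was 4.0 ± 0.29 and 4.18 ± 0.29 higher. The higher genes against low serum were COL10A1 and COL27A1, the latter by 1.17 ± 0.28. These comparisons share the senescent arrays.

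The senescent change was repeated in each hairpin line against its own growing cells. COL10A1 rose in all 4 lines, by 3.06 to 5.72, and COL15A1 fell in all 4, with changes of -7.79 to -6.48. COL3A1 (-2.87 to -1.23), COL5A2 (-2.38 to -0.94), COL16A1 (-1.71 to -0.99) and COL18A1 (-2.09 to -1.15) also fell in all 4. Not all of these calls were firm. In shp107 cells that of COL5A2 was lost without any 1 of 3 of its 4 arrays (-1.26 to -0.62). There that of COL3A1 was lost without 1 array (-1.58 to -0.87), and in shRB cells that of COL18A1 without either of 2 (-1.36 to -0.93). The type I chain COL1A2 and both COL4A1 and COL4A2 fell in 3 of 4. On their brightest probe sets COL1A1, COL6A3, COL11A1 and COL14A1 were called in none, but other COL1A1 sets fell in vector cells (-2.07 and -1.15). The counts were 3 higher and 10 lower in shRB cells beside 32.8% of all genes (12.4% higher, 20.4% lower), 6 higher and 5 lower in shp107 cells beside 38.2% (17.2% and 21%), and 3 higher and 11 lower in shp130 cells beside 32.7% (12.6% and 20.1%). In shRB and shp107 cells COL7A1, the anchoring fibril gene, also rose, by 2.63 ± 0.46 and 2.04 ± 0.46, and COL4A6 by 2.44 and 1.71. COL6A2 rose by 1.26 in shp107 and by 0.89 in shp130 cells. COL4A5 rose by 0.98 and COL6A1 by 0.63 in shp107 cells, and COL27A1 by 0.74 in shp130 cells. Of these calls, only those of COL7A1 and that of COL6A2 in shp107 cells were kept without any 1 of the 4 arrays. Whether a change differed between a hairpin line and vector cells was tested separately, and 1 collagen was called for shRB, COL10A1, by 1.63 ± 0.40 (limma adjusted p = 0.0377, beside 1.99% of all genes, 1.34% higher and 0.646% lower). That call was lost without any 1 of 7 of the 8 arrays it rests on, with a difference of 1.21 to 2.04. For shp107 and shp130, 0 collagens were called in this test, with 6 and 4 at an unadjusted p under 0.05, beside 1.17% and 0.164% of all genes called.

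Experiment 2 repeated senescence with its own vector cells, and there 2 of 23 collagens rose and 16 fell, which is 78.3% called beside 39.2% of all genes (18.7% higher, 20.6% lower). The median change was -1.20 against 0.01 over all genes. All 7 fibrillar collagens were called, 6 lower and COL27A1 higher. All 11 collagens called in experiment 1 were called the same way in experiment 2. Over all genes this held for 1591 of 2166, or 73.5%. Read the other way, 11 of the 18 collagens called in experiment 2 (61.1%) were called the same way in experiment 1, against 47.6% of all genes. The experiments share no arrays.

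COL3A1 read 13.17 and 13.14 in growing and 8.89 and 9.05 in senescent vector cells of experiment 2, a change of -4.19 ± 0.17 (limma adjusted p = 1.07e-06). COL12A1, a collagen that bridges fibrils, read 12.80 and 13.10 and then 10.93 and 11.06 (-1.96 ± 0.22, limma adjusted p = 0.000183). For these genes the fall was greater than in experiment 1, by 1.97 ± 0.45 for COL3A1 (limma adjusted p = 0.0258) and by 1.62 ± 0.27 for COL12A1 (limma adjusted p = 0.00158), in a test that called 2 of 23 collagens beside 1.5% of all genes (0.846% higher, 0.658% lower). The COL3A1 difference was lost without any 1 of 7 of its 8 arrays (-2.39 to -1.55), and that of COL12A1 was called without each of its 8. COL14A1 read 5.51 and 5.01 and then 1.94 and 2.37 (-3.10 ± 0.23, limma adjusted p = 1.94e-05). Growing cells of experiment 1 already had it near background, at 3.47 and 3.07. COL15A1 went from 9.04 and 9.36 to 3.19 and 3.41 (-5.90 ± 0.19, limma adjusted p = 2.76e-07). COL10A1 went from 2.51 and 2.84 to 7.90 and 7.32 (4.94 ± 0.23, limma adjusted p = 1.67e-06).

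The other changes called in both experiments were, in experiment 2, -1.59 for COL1A2, -1.57 for COL5A1, -2.28 for COL5A2, -1.45 for COL4A1, -1.92 for COL4A2, -1.20 for COL16A1, -2.22 for COL18A1 and -1.04 for COL13A1. The genes called only in experiment 2 were COL1A1 (-0.51 ± 0.17), COL6A3 (-0.51 ± 0.17), COL8A1 (-1.15 ± 0.22), COL11A1 (-1.23 ± 0.19), COL12A1, COL14A1 and COL27A1 (1.16 ± 0.21). COL8A1, a short-chain network gene, read 10.66 and 10.97 in growing and 9.61 and 9.72 in senescent cells of experiment 2, and COL27A1 read 6.34 and 6.46 and then 7.64 and 7.48. The calls of COL1A1 and COL6A3 were lost on leaving out any 1 of 3 arrays (highest adjusted p = 0.283 and 0.233), and that of COL13A1 without senescent vector replicate 2 of experiment 2 (adjusted p = 0.0817). Apart from COL3A1 and COL12A1, the difference between experiments was not called for any of these genes.

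**Figure D3:**
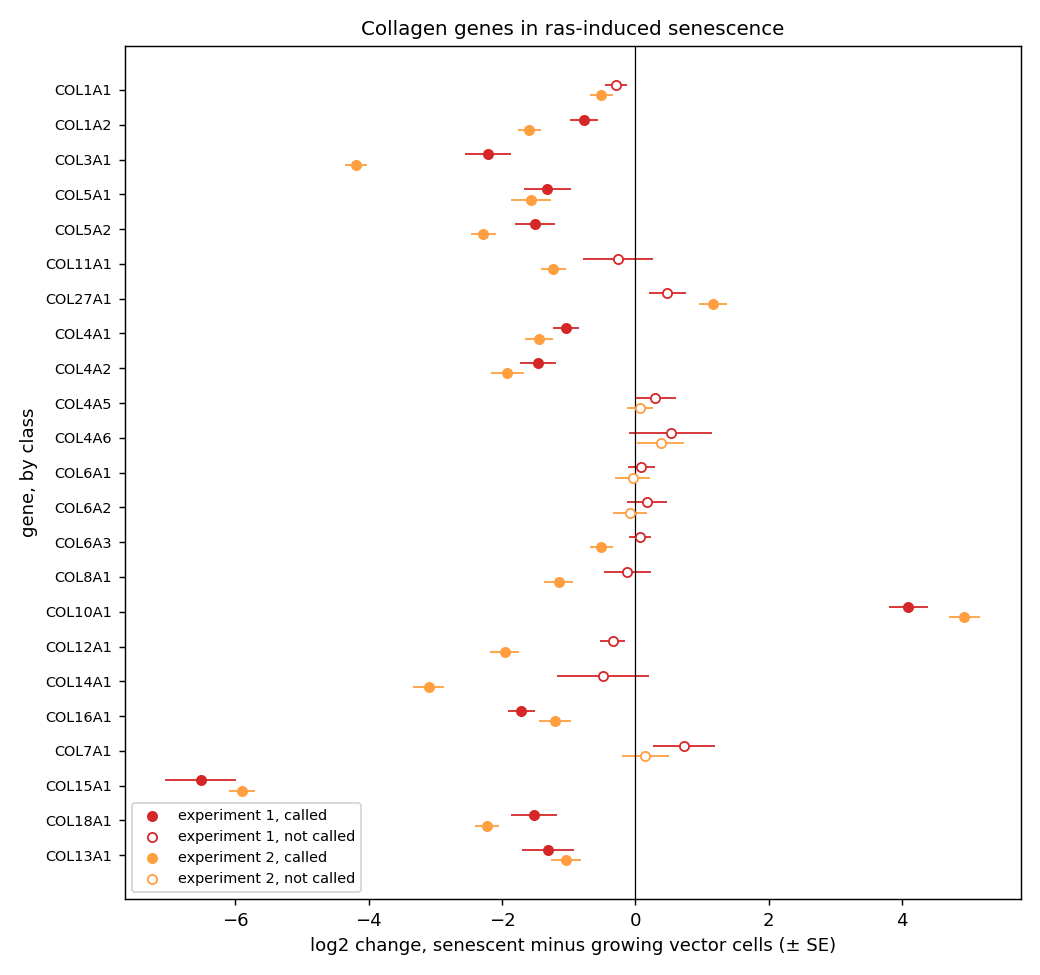
Log2 change from growing to senescent vector cells (points, ± SE, 2 arrays a group) for the 23 tested collagens by class, in red for experiment 1 and orange for experiment 2, filled where called. COL15A1 lies furthest left in both (-6.52 and -5.90), COL10A1 furthest right (4.10 and 4.94), and COL3A1 at -2.21 and -4.19.

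The size of the change depended on which probe set was read. A separate fit took each of 13847 probe sets as its own feature, 48 of them for collagens. For COL1A1, whose brightest probe set gave -0.29 ± 0.18 in experiment 1, another set gave -2.07 ± 0.37 (limma adjusted p = 0.000268) and yet another -1.15 ± 0.36 (limma adjusted p = 0.0253). In experiment 2 the same 3 gave -0.51, -3.25 and -2.65, all called. The brightest COL1A1 set spans only 11.54 to 12.48 over all arrays. COL1A2 gave -0.77 on its brightest set and -3.60 ± 0.44 on its dimmest tested set. COL3A1 gave -2.21, -2.88 and -4.18 on its 3 sets, and COL4A1 -1.04 and -2.37. COL12A1, not called on its brightest set (-0.34), gave -2.23 ± 0.47 on another (limma adjusted p = 0.00138). On that set experiment 2 gave -2.45, and on the remaining set the values were -0.75 and -1.48 in experiments 1 and 2, so the gap between experiments was narrower on both than on the brightest set (-0.34 and -1.96). For COL1A1, COL1A2, COL3A1, COL4A1, COL4A2, COL5A1, COL5A2 and COL12A1 the brightest set gave the smallest fall in experiment 1. The part of the probe set choice in the sizes above was not tested.

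**Figure D4:**
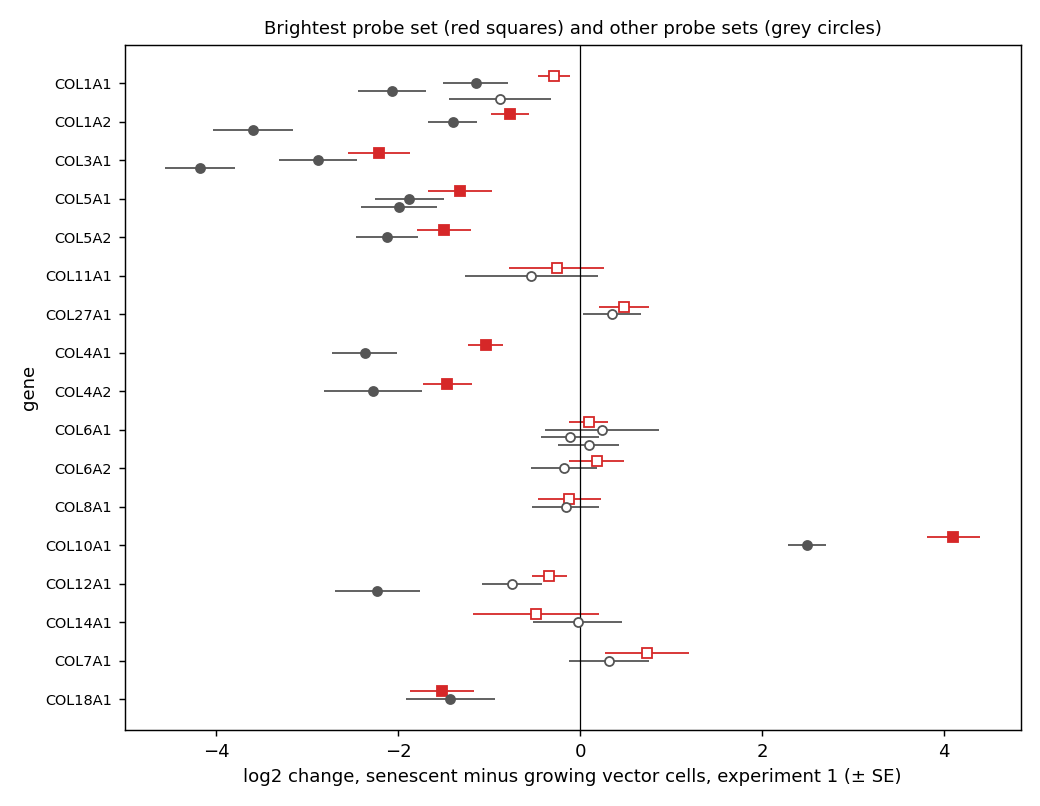
Log2 change from growing to senescent vector cells in experiment 1 (± SE) for the 17 collagens with more than 1 tested probe set, as a red square for the brightest probe set and grey circles for the others, filled where called in the fit over 13847 probe sets. For the type I, III, IV and V genes the circles lie left of the square, as far as -4.18 for COL3A1, and for COL10A1 the circle is at 2.49 against 4.10.

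Low serum tests serum withdrawal, which raised several associated and network collagens. Of 23 collagens 6 rose and 1 fell, which is 30.4% called beside 13% of all genes (6.69% higher, 6.36% lower), with a median change of 0.63 against 0.03 over all genes. The fibrillar collagens had a median of 0.75 and 0 calls, with 4 of 7 higher and 1 lower at an unadjusted p under 0.05. The 2 other sets of the fibrillar COL5A1 were called higher (1.35 and 1.37, limma adjusted p = 0.0259 and 0.038), against 0.75 on its brightest. COL4A5, a basement membrane chain, read 8.74 and 8.08 in growing and 10.17 and 9.55 in low-serum vector cells (1.45 ± 0.31, limma adjusted p = 0.00379). COL8A1 read 10.25 and 10.44 and then 11.22 and 11.85 (1.19 ± 0.35, limma adjusted p = 0.026). On their brightest sets all fibril-associated genes tested rose, namely COL12A1 by 0.65 ± 0.19 (limma adjusted p = 0.0252), COL16A1 by 0.63 ± 0.20 (limma adjusted p = 0.0406) and COL14A1 by 2.14 ± 0.69 (limma adjusted p = 0.0453). The other sets of COL12A1 (0.70 and 1.18, limma adjusted p = 0.181 and 0.113) and COL14A1 (0.62, limma adjusted p = 0.461) were not called.

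COL12A1 read 12.40 and 12.08 and then 12.92 and 12.86, and COL16A1 7.86 and 8.02 and then 8.64 and 8.49. COL14A1 read 7.02 on 1 low-serum vector array and 3.79 on the other, against 3.47 and 3.07 when growing, so its rise rests largely on 1 array and was 0.52 without it. COL15A1 read 12.21 and 11.76 in low serum, both above the growing arrays at 11.39 and 9.02 (1.78 ± 0.53, limma adjusted p = 0.0304, or 0.59 without growing vector replicate 2). The 1 collagen that fell was COL13A1, from 9.30 and 8.95 to 7.25 and 7.45 (-1.78 ± 0.39, limma adjusted p = 0.00467). These calls were fragile. Of these 7 genes, 3 and 1 were still called on leaving out the first and the second growing array, and 1 and 3 on leaving out the first and the second low-serum array.

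In the hairpin lines COL13A1 also fell in low serum, in all 4 lines (-1.78 to -1.51), and COL4A5 and COL15A1 rose in 3 of 4. Here too the calls were fragile. The COL15A1 calls in shRB and shp107 cells were lost without any 1 of 4 arrays, those of COL13A1 in each hairpin line without any 1 of 3, and those of COL4A5 in shRB and shp107 cells without either of 2. COL11A1, a minor fibrillar chain, was called in shp107 cells alone, by 2.32 ± 0.52, from 4.04 and 3.89 to 5.71 and 6.86, a call lost without either of 2 arrays (1.75 to 2.90). Its changes were 1.06 to 2.32 over the lines. The counts were 2 higher and 1 lower in shRB cells beside 6.43% of all genes (2.89% higher, 3.54% lower), 3 and 1 in shp107 cells beside 6.8% (3.36% and 3.44%), and 0 and 1 in shp130 cells beside 9.8% (4.71% and 5.09%). In the test of the difference from vector cells 0 collagens were called for any hairpin, with 0, 1 and 0 at an unadjusted p under 0.05 for shRB, shp107 and shp130, beside 0%, 0% and 0.0117% of all genes called.

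Confluence, which stops growth by cell contact, raised COL14A1 and COL4A6 most, as read on the brightest probe set of each gene. Of 23 collagens 5 rose and 2 fell, which is 30.4% called beside 25.1% of all genes (10.5% higher, 14.5% lower), with a median change of -0.06 against -0.05. COL14A1, which binds fibrils, read 3.47 and 3.07 in growing and 6.83 and 9.09 in confluent vector cells (4.69 ± 0.69, limma adjusted p = 4.82e-05), with growing cells near background. Its other tested probe set gave a smaller rise of 1.41 ± 0.49 (limma adjusted p = 0.0392). COL4A6 read 5.79 and 5.52 and then 9.39 and 10.77 (4.43 ± 0.62, limma adjusted p = 2.32e-05). Its head-to-head partner COL4A5 read 8.74 and 8.08 and then 10.19 and 11.03 (2.20 ± 0.31, limma adjusted p = 3.01e-05). COL8A1 read 10.25 and 10.44 and then 11.60 and 11.77 (1.34 ± 0.35, limma adjusted p = 0.00702). Groups did not overlap for these genes, and their calls were kept without any 1 of the 4 arrays.

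COL7A1 was called (1.52 ± 0.46, limma adjusted p = 0.0186) although its groups overlapped, at 6.94 and 5.20 when growing and 8.47 and 6.71 at confluence. Its call was lost without growing vector replicate 2 or confluent vector replicate 1, with a change of 0.64 to 2.40. The other tested COL7A1 probe set was not called (0.49 ± 0.44, limma adjusted p = 0.456). COL13A1 fell, from 9.30 and 8.95 to 7.60 and 7.16 (-1.74 ± 0.39, limma adjusted p = 0.00263). COL5A1 read 10.72 and 10.49 and then 8.42 and 10.07 (-1.36 ± 0.35, limma adjusted p = 0.0073). The confluent arrays stood far apart for this gene, and the change was -0.54 without confluent vector replicate 1. COL1A1 was not called on its brightest set (-0.23) but fell on the same other sets (-1.40, limma adjusted p = 0.00766, and -1.29, limma adjusted p = 0.0121). Over the lines COL4A5 rose in all 4 (1.54 to 2.20), and COL4A6 and COL14A1 in 3 of 4. The counts were 7 higher and 0 lower in shRB cells beside 11.1% of all genes (3.04% higher, 8.04% lower), 2 and 0 in shp107 cells beside 8.15% (3.52% and 4.63%), and 5 and 2 in shp130 cells beside 18.6% (8.19% and 10.4%). Of the 7 calls in shRB cells, only that of COL4A5 was kept without either growing shRB array.

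The hairpin lines were then set against vector cells state by state. Among growing cells 0 collagens were called for shRB, shp107 or shp130, with 1, 0 and 0 at an unadjusted p under 0.05, beside 0.188%, 0% and 0.0587% of all genes called. In low serum 0 were called as well, with 1, 2 and 1 at an unadjusted p under 0.05, beside 0.0822%, 0.0352% and 0.270% of all genes. At confluence shRB gave 6 higher and 4 lower beside 17.5% of all genes (7% higher, 10.5% lower), shp107 3 higher and 3 lower beside 13.5% (7.32% and 6.17%), and shp130 0, with 1 at an unadjusted p under 0.05, beside 0.0235%. These comparisons share the confluent vector arrays, which stood apart from each other.

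Of the 5 genes that confluence had raised, COL4A6, COL14A1 and COL7A1 were lower with both shRB and shp107, COL8A1 with shRB, and COL4A5 was called with neither. These genes were called higher at confluence on the same vector arrays that are the reference here, so the spread of those arrays can favour both results. COL4A6 read 6.28 and 7.99 in confluent shRB cells and 5.79 and 6.48 in confluent shp107 cells, against 9.39 and 10.77 with vector and 10.30 and 10.71 with shp130. The changes were -2.95 ± 0.62 (limma adjusted p = 0.0019) and -3.95 ± 0.62 (limma adjusted p = 0.000118). COL14A1 read 5.48 and 5.50 with shRB and 4.61 and 4.60 with shp107, against 6.83 and 9.09 with vector and 9.16 and 7.42 with shp130 (-2.47 ± 0.69 and -3.35 ± 0.69, limma adjusted p = 0.017 and 0.00185). COL7A1 was also lower with shRB and shp107 than with vector and shp130. It read 5.77 and 5.39, 5.74 and 5.80, 8.47 and 6.71, and 8.73 and 8.17 with shRB, shp107, vector and shp130 (-2.01 and -1.83 for shRB and shp107, SE 0.46). COL8A1 was lower with shRB, at 10.10 and 10.52 against 11.60 and 11.77 (-1.37 ± 0.35, limma adjusted p = 0.00821).

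Chains of type V and VI were higher instead. COL5A1 read 11.16 and 10.97 with shRB and 10.92 and 10.79 with shp107, above 8.42 and 10.07 with vector (1.82 ± 0.35 and 1.61 ± 0.35, limma adjusted p = 0.000988 and 0.00301). COL6A2 read 12.52 and 11.87 with shRB and 11.70 and 11.24 with shp107, against 10.02 and 10.87 (1.75 ± 0.30 and 1.02 ± 0.30, limma adjusted p = 0.000287 and 0.0231). COL6A1 rose by 1.00 and 0.86 (SE 0.20). With shRB alone the called genes were COL1A1 (0.63 ± 0.17), COL15A1 (1.85 ± 0.53) and COL16A1 (1.16 ± 0.20). Without confluent vector replicate 1 the calls of COL1A1, COL6A1, COL7A1 and COL15A1 were lost for shRB, and those of COL5A1, COL6A1, COL6A2 and COL7A1 for shp107. Without confluent shRB replicate 1 those of COL1A1, COL4A6, COL8A1, COL14A1 and COL15A1 were lost for shRB, and without confluent shp107 replicate 1 those of COL6A1, COL6A2 and COL7A1 for shp107. The COL14A1 call with shRB was lost without any 1 of 3 of its 4 arrays (-3.59 to -1.34). Whether the confluent change itself differed from that in vector cells was called for COL4A6 with shp107 (-3.31 ± 0.87, limma adjusted p = 0.0379, beside 3.35% of all genes, 1.77% higher and 1.57% lower), lost without any 1 of 7 of its 8 arrays (-4.0 to -2.62). It was called for 0 collagens with shRB (10 at an unadjusted p under 0.05, beside 2.55% of all genes called) and 0 with shp130 (1 at an unadjusted p under 0.05, beside 0.0117%).

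**Figure D5:**
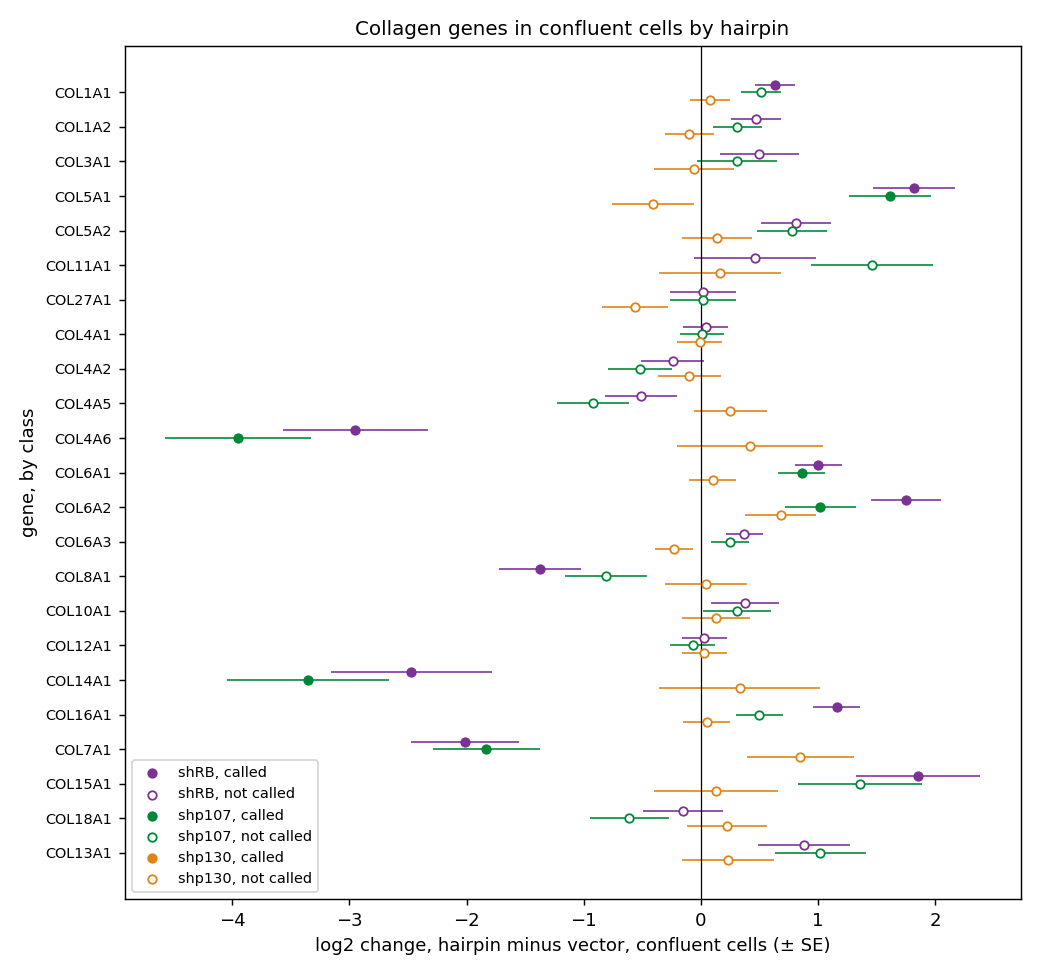
Log2 difference between hairpin and vector in confluent cells (± SE, 2 arrays a group) for the 23 tested collagens, in purple for shRB, green for shp107 and orange for shp130, filled where called. COL4A6 is lowest (-2.95 with shRB, -3.95 with shp107) and COL5A1 among the highest (1.82 and 1.61), and every shp130 point is open.

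In senescent cells shRB raised 3 of 23 collagens and lowered 0, which is 13.0% called beside 9.75% of all genes (5.98% higher, 3.77% lower). COL10A1 read 9.66 and 8.84 with shRB against 7.71 and 7.62 with vector (1.58 ± 0.29, limma adjusted p = 0.000838), and it kept its call without any 1 of the 4 arrays. COL7A1 read 8.99 and 8.56 against 6.64 and 6.95 (1.98 ± 0.46, limma adjusted p = 0.007). COL6A2 read 12.08 and 11.83 against 11.13 and 10.65 (1.06 ± 0.30, limma adjusted p = 0.025). Its second probe set gave 0.22, and the call was lost without 3 of the 4 arrays in turn. The call of COL7A1 was lost without senescent vector replicate 1 or senescent shRB replicate 1 (highest adjusted p = 0.0748), and its second probe set gave 1.69 ± 0.44 (limma adjusted p = 0.0185). COL12A1, not called on its brightest set (-0.54 ± 0.19), was lower on its 2 other sets (-2.30 and -1.06, limma adjusted p = 0.00301 and 0.0469).

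With shp107, 4 collagens rose and 0 fell beside 7.84% of all genes (2.74% higher, 5.1% lower). They were COL3A1 by 1.29, COL6A2 by 1.25, COL10A1 by 1.03 and COL4A1 by 0.78. COL3A1 read 10.77 and 11.48 with shp107 against 9.84 and 9.83, and COL10A1 9.07 and 8.33 against 7.71 and 7.62. Each of these calls was lost without at least 2 of the 4 arrays in turn. With shp130 0 collagens were called (4 lower at an unadjusted p under 0.05, beside 1.67% of all genes). COL10A1 read 6.32 and 7.25 there.

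In experiment 2 shRB raised COL15A1 and lowered COL1A2 in senescent cells, 2 of 23 beside 20.1% of all genes (10.9% higher, 9.24% lower). COL15A1 read 4.41 and 4.36 with shRB against 3.19 and 3.41 (1.08 ± 0.19, limma adjusted p = 0.00652), all near background, and its call was lost without either senescent vector array (highest adjusted p = 0.0927). COL1A2 read 11.19 and 11.36 against 11.87 and 11.94 (-0.62 ± 0.17, limma adjusted p = 0.0378), and its call was lost without any 1 of the 4 arrays. The 3 genes raised in experiment 1 were not called here in the fit of 1 probe set per gene. COL10A1 read 8.46 and 8.27 against 7.90 and 7.32 (0.75 ± 0.23, limma adjusted p = 0.0542), and COL7A1 7.11 and 8.34 against 6.75 and 6.62 (1.04 ± 0.35, limma adjusted p = 0.0696). In the fit over 13847 probe sets COL10A1 was called higher on both of its sets (0.71 and 0.75, limma adjusted p = 0.0335 and 0.0493) and COL7A1 on its second set (1.29, limma adjusted p = 0.00384). COL3A1 was called higher there on its other sets (1.12 and 0.63, limma adjusted p = 0.00534 and 0.0418) but not on its brightest (0.28 ± 0.18). Another COL1A2 set was called lower (-0.66, limma adjusted p = 0.0387). COL6A2 lay the other way, at 10.21 and 10.99 against 11.18 and 11.21 (-0.59 ± 0.25, limma adjusted p = 0.124). The difference of the shRB change between experiments was not called for any of the 23, with 3 at an unadjusted p under 0.05 beside 1.16% of all genes called, and for COL6A2 it was -1.65 ± 0.42 (limma adjusted p = 0.0529). RB1 itself was 6.86 ± 0.31 in senescent shRB cells of experiment 2 and 4.06 ± 0.60 in those of experiment 1.

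The neighbouring pairs were read over groups, within the 13 groups that were not senescent and the 6 that were, because the 2 kinds separate. Groups share arrays of no other group but share their processing, and the values are descriptions. COL4A1 and COL4A2, whose sequences are printed above, had r = 0.71 over the 13 groups (rho 0.57, 0.52 without the 2 farthest groups) and 0.96 over the 6 (rho 0.83, 0.45 without the 2 farthest). COL4A6 and COL4A5 had 0.83 over the 13 (rho 0.84, 0.68) and 0.48 over the 6 (rho 0.77, 0.51). COL6A1 and COL6A2, neighbours on chromosome 21, had 0.91 (rho 0.88, 0.85) and 0.95 (rho 0.94, 0.69), and COL3A1 and COL5A2, neighbours on chromosome 2, 0.72 (rho 0.63, 0.70) and 0.42 (rho 0.31, 0.26). The median over all 253 pairs of tested collagens was 0.09 over the 13 groups and 0.50 over the 6. The 2 chains of the COL4A6 and COL4A5 pair moved by unlike amounts at confluence, 4.43 and 2.20, and with shp107 there only COL4A6 was called, since COL4A5 gave -0.92 at 9.64 and 9.75 against 10.19 and 11.03.

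Genes that make, cross-link, bind, sense or break down collagen were read from a list of 57, of which 45 were tested. In senescent vector cells of experiment 1, 7 rose and 18 fell, which is 55.6% called beside 25.4% of all genes, and in experiment 2, 9 rose and 21 fell (66.7% beside 39.2%). Of 12 hydroxylation genes 2 rose and 4 fell. The prolyl 3-hydroxylase P3H2 fell by 4.21 on the log2 scale (SE 0.49) and CRTAP, the cartilage-associated protein of the prolyl 3-hydroxylase complex, by 1.46, while the prolyl 4-hydroxylase chain P4HA2 rose by 1.21. In folding and export, 3 of 7 fell, among them the collagen chaperone SERPINH1 (-1.61 ± 0.32), and 1 rose, the ion channel gene TMEM38B (1.76). In propeptide cleavage 2 of 3 fell, the N-proteinase ADAMTS2 (-2.50) and the enhancer PCOLCE (-1.65). Of 5 cross-linking genes 4 fell, LOX (-0.90), LOXL1 (-2.26), LOXL2 (-1.15) and LOXL3 (-1.72), and the same 4 fell in experiment 2. The fibril-binding proteoglycan decorin, DCN, fell by 2.81 and the secreted CTHRC1 by 1.31. Among receptors the collagen-sensing kinase DDR2 (-1.91) and the integrin chain ITGA1 (-2.07) fell and ITGA2 rose (0.89). Of 6 breakdown genes 3 rose, the collagenase MMP1 (1.08), MMP2 (0.98) and cathepsin CTSK (1.73), and FAP fell (-1.05).

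In low serum 6 pathway genes rose and 3 fell (20.0% beside 13%), with the proteoglycan LUM up by 2.85, DCN by 1.33 and MMP2 by 1.19, and MMP1 down from 12.24 to 8.49 on average (-3.75 ± 0.39). At confluence 4 rose and 12 fell (35.6% beside 25.1%). CTSK rose by 3.48 and P4HA3 by 2.59, while P3H2 (-3.44), the transcription factor gene CREB3L1 (-2.51), ADAMTS2 (-1.47), LOXL1 (-1.28) and SERPINH1 (-1.37) fell. With shRB in senescent cells 4 rose and 2 fell in experiment 1 (13.3% beside 9.75%) and 7 rose and 5 fell in experiment 2 (26.7% beside 20.1%). PCOLCE rose in both, by 1.71 and 1.19, and CTHRC1 in both, by 0.60 and 0.83, whereas the fall of LOX (-1.20) and the rise of biglycan, BGN (2.02), were called in experiment 1.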

How the data were processed

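RNA from 38 samples was hybridised to Affymetrix arrays. Per the submitters' processing notes the authors made the deposited log2 values with GCRMA. Its version, and whether all arrays were normalized together, are not given in the sources used here. Such values can shrink low signals toward background, so changes from dim levels can be understated, which was not tested. Of 54613 probe sets, 41091 named 1 gene, 1801 several and 11721 none here. COL17A1 was not analysed here. The members, gene lists and comparisons were chosen with earlier results of these data known. All 23 tested collagens are named, and values per array are given for those called in the 6 comparisons of vector states and of senescent shRB cells, the largest changes first. Pathway genes were named, at most 4 a role, where called in these.

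Each experiment was fitted with limma 3.58.1 in R 4.3.3 with data.table version 1.17.8, with 1 mean per group and eBayes. Residual and prior degrees of freedom were 16 and 4.85, and 3 and 5.35. Differences between experiments came from 1 fit of all 38 arrays (19 and 5). P-values were adjusted by Benjamini-Hochberg over 8511 genes within each of 39 contrasts, and a gene was called under 0.05. The code was tested on simulated data. Alternatives were quantile normalization, no filter, a filter at 6, the mean of probe sets, an eBayes trend, 1 joint fit, a replicate block and leaving out single arrays. The fit of every probe set was added after seeing the data. Promoters and figures used Python 3.11.15, numpy 2.4.6, pandas 2.3.3, scipy 1.17.1 and matplotlib 3.10.9.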

Additional observations from a re-analysis of the deposited data

Results flagged for a closer look

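In 4 cases the size of a collagen's response differed between lines or experiments by a test of the difference itself. The senescent rise of COL10A1 was 1.63 ± 0.40 greater in shRB than in vector cells (limma adjusted p = 0.0377), since senescent shRB arrays read 9.66 and 8.84 and the growing arrays of both lines lay between 3.51 and 3.63. The confluent rise of COL4A6 differed by -3.31 ± 0.87 in shp107 against vector cells (limma adjusted p = 0.0379). Between experiments, the senescent change of COL3A1 differed by -1.97 ± 0.45 (limma adjusted p = 0.0258) and that of COL12A1 by -1.62 ± 0.27 (limma adjusted p = 0.00158), experiment 2 minus experiment 1. The growing vector arrays read 12.47 and 11.63 for COL3A1 in experiment 1 and 13.17 and 13.14 in experiment 2. The calls for COL10A1, COL4A6 and COL3A1 were each lost without any 1 of 7 of their 8 arrays. For COL12A1 the gap between experiments was narrower on its other probe sets. They gave -2.23 and -0.75 in experiment 1 and -2.45 and -1.48 in experiment 2. Other tests of differences called 0 collagens.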

How the results depend on the processing

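The counts of called collagens in vector cells were stable for senescence and confluence. Over the alternatives and with single arrays left out, senescence gave 9 to 13 (11 as reported), confluence 6 to 8 (7) and senescence in experiment 2 15 to 19 (18). None of the 48 collagen calls in the 6 comparisons of vector states and of senescent shRB cells, nor the 4 differences given above, changed sign under the alternatives run on them. With single arrays left out, low serum gave 1 to 4 in place of 7, senescent shRB cells 1 to 3 in place of 3, and senescent shRB cells of experiment 2 0 to 3 in place of 2. That last count was also 5 with the mean of probe sets and 1 with all 38 arrays in 1 fit. The labels do not say whether replicates A and B pair arrays across groups, and the correlation of the replicate differences of the groups compared ran from -0.14 to 0.27 over the 6 comparisons. With the replicate block the count for senescent shRB cells of experiment 2 was 7, and the other 5 counts were 8, 7, 11, 3 and 18, each within 1.5 times that reported. Of 48 single collagen calls in these comparisons, the mean of probe sets lost 4 (COL12A1 and COL14A1 in low serum, COL7A1 at confluence, COL6A2 with shRB), no filter 2 (COL14A1 and COL15A1 in low serum), quantile normalization 3 (COL16A1 in low serum, COL1A1 and COL6A3 in experiment 2), the eBayes trend 1 (COL16A1 in low serum) and the joint fit 2 (COL11A1 and COL15A1 in experiment 2). In the other 31 comparisons, leaving out 1 array took the count below the reported one by over 1.5 times in 34 fits and above it in 10. The cause was not tested. Depth is not defined for arrays, and changes of genes near the array median of 3.27 to 3.41 can be understated.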
